A study of Mus musculus with 5 samples.

Results

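The 10 genes followed here, of 32531 listed in the count tables, were the Notch receptor genes Notch1, Notch2 and Notch3, the ligand genes Jag1, Jag2 and Dll1, the DNA-binding factor gene Rbpj, and the Mastermind coactivator genes Maml1, Maml2 and Maml3. They were picked by name as parts of one pathway, because the Maml2 level was far higher in dentate gyrus than in cortex. The Maml2 difference is therefore described here without a test. The RNA came from ribosomes tagged in adult mice that carry Rbp4-Cre (KL100) together with a Rosa26-LSL-EGFP/Rpl10a allele, in which Cre switches on an EGFP-tagged ribosomal protein. The mice were untreated. Cerebral cortex gave 2 libraries and dentate gyrus 3, all of them pulled down with an antibody against EGFP, and no unpurified input was analysed here. In this line Cre is widely used to mark layer 5 pyramidal neurons of cortex. The labels do not say whether each library is a different animal. The p-values therefore rest on the variation among these libraries, which may be technical.

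Notch receptors sit in the cell membrane and are activated by ligands of the Jagged and Delta families on a neighbouring cell. Binding leads to cleavage by an ADAM protease and then by γ-secretase, which frees the intracellular domain to enter the nucleus. There it joins RBPJ on DNA, and a Mastermind protein binds the pair and recruits acetyltransferases that turn on target genes such as those of the Hes and Hey families. In the dentate gyrus the pathway is best known for keeping adult neural stem cells in an undivided state, and in mature neurons it has been tied to synaptic plasticity.

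Each library held between 22600963 and 36837908 counts in genes, and a floor of 3 counts stood for 0.0827 to 0.133 counts per 1000000 (CPM) in single libraries. By edgeR, all 8 dentate granule cell markers examined were called toward dentate gyrus, where 10.5% of all tested genes were. Dsp and Lct among them passed the filter on low counts only through dentate gyrus. Of 8 layer 5 markers 5 were called toward cortex, as were 10.8% of all tested genes, and the gene of the driver, Rbp4, was not (9.97 and 15 CPM in cortex against 9.93, 9.45 and 3.4 CPM). Of 8 interneuron markers 5 were also called toward cortex, among them Sst at 699 and 641 CPM against 113, 80.8 and 72.4 CPM, and 1 toward dentate gyrus. Pvalb and Vip, also called toward cortex, passed the filter only through cortex. The part of interneurons in the other results was not tested. Cortex replicate 1 stood apart by the gene Car8, at 411 CPM against 1.43 CPM in cortex replicate 2. Dentate gyrus replicate 2 stood apart by Dlk1 and Dcn, at 83.3 and 114 CPM against at most 13 and 10.5 CPM in the other dentate gyrus libraries. Calls that were lost with these 2 libraries left out together are given both ways.

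Per exon length, Maml2 had the highest level of the 10 genes in dentate gyrus and the lowest of the 3 Mastermind genes in cortex. It stood at 331, 378 and 309 CPM in dentate gyrus replicates 1, 2 and 3 and at 8.72 and 12.9 CPM in cortex replicates 1 and 2. The means were 339 ± 35.4 CPM (SD, n = 3) and 10.8 ± 2.97 CPM (SD, n = 2), a ratio of 31.4. The lowest dentate gyrus library was 23.9 times the highest cortex library, so the tissues were far apart in every library. The fitted log2 change was 4.98 (SE 0.23), and it stayed between 4.64 and 5.25 under 14 alternative settings. By that value Maml2 ranked 20 among 7903 tested genes with a mean of at least 10 CPM. In bulk RNA of this kind, fewer cells of a type and less RNA per cell cannot be told apart.

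**Figure D1:**
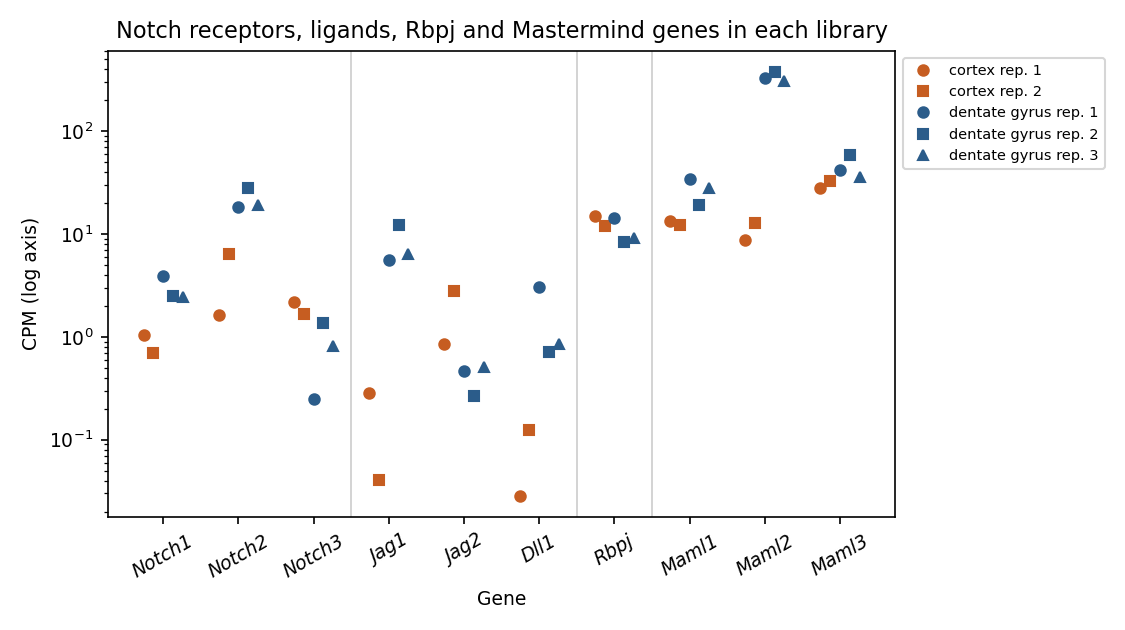
Level of each of the 10 genes in each library, in CPM on a log axis; orange points are the 2 cortex libraries and blue points the 3 dentate gyrus libraries. Maml2 lies at 309 to 378 CPM in dentate gyrus and at 8.72 and 12.9 CPM in cortex, whereas Rbpj overlaps between the tissues.

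The paralogs Maml1 and Maml3, which act at the same step, were also higher in each dentate gyrus library, by much smaller amounts. Maml1 was at 34.0, 19.0 and 27.9 CPM in dentate gyrus against 13.4 and 12.3 CPM in cortex. Its log2 change of 1.07 (SE 0.35) had an adjusted p of 0.0547 by edgeR and was not called. The call depended on the setting, with adjusted p of 0.0168 by DESeq2, 0.0494 by limma voom and 0.0328 by edgeR without dentate gyrus replicate 2. Maml3 was at 42.5, 58.9 and 36.3 CPM in dentate gyrus and at 28.2 and 32.9 CPM in cortex. Although its tissues did not overlap, the lowest dentate gyrus library was only 1.1 times the highest cortex library. The log2 change was 0.59 (SE 0.28), with an adjusted p of 0.170 by edgeR.

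Levels of different genes were compared per kilobase (kb) of annotated exon, since longer transcripts collect more reads. On this scale the Mastermind family summed to 6.44 and 7.31 CPM per kb in cortex and to 60.3, 66.4 and 55.3 CPM per kb in dentate gyrus. Maml2 made up 20.5% and 26.8% of the family in cortex and 83.1%, 86.3% and 84.6% in dentate gyrus. In cortex Maml3 was the largest part, at 42.3% ± 0.848 (SD, n = 2), followed by Maml1 at 34.1% ± 5.27 (SD, n = 2). In dentate gyrus Maml1 and Maml3 made up 8.18% ± 2.64 and 7.15% ± 1.17 of the family (SD, n = 3), although their own levels were higher there in each library. These shares carry the Maml2 difference and are a description.

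**Figure D2:**
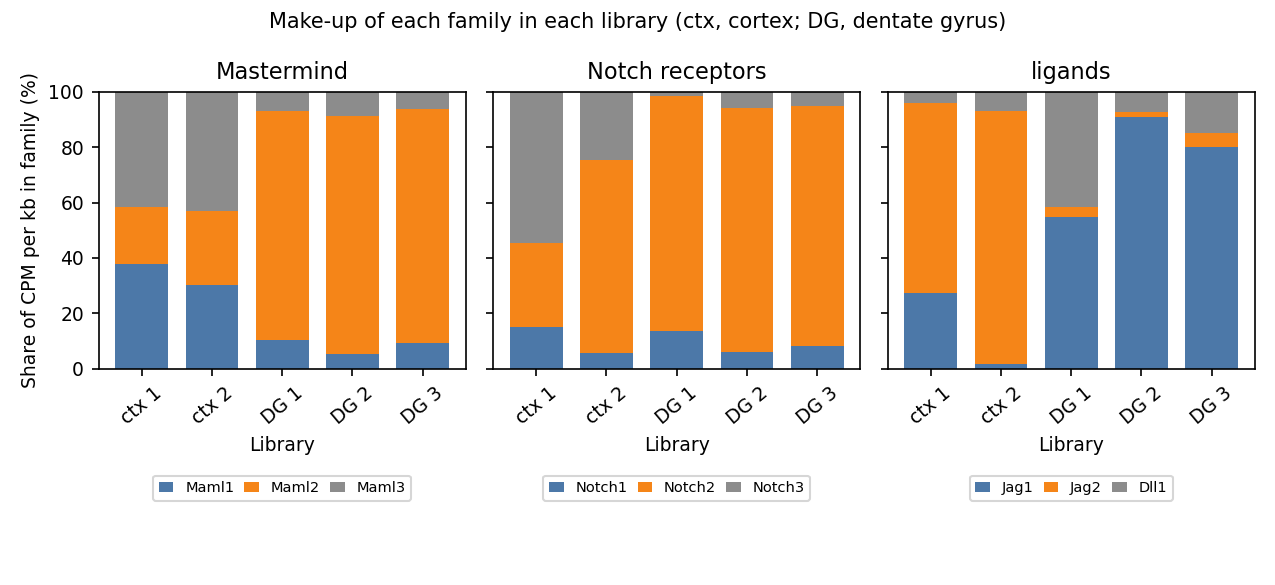
Share of each gene in the summed CPM per kb of its family, in percent, 1 bar per library. The share of Maml2 among Mastermind genes is 20.5% and 26.8% in cortex and 83.1% to 86.3% in dentate gyrus. Among the 3 ligands the largest share is that of Jag2 in both cortex libraries and of Jag1 in each dentate gyrus library. Dll1 takes 41.4% in dentate gyrus replicate 1.

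Maml2 spans chromosome 9 from 13297957 to 13709388 on the plus strand (GRCm38, GENCODE M21), 411.4 kb that hold 6598 bases of exon. The promoter windows of the 3 Mastermind genes are shown because this family holds the gene with the large difference and 2 paralogs with small ones. Each runs from 250 bases before to 50 bases after a start annotated by RefSeq (GRCm38.p6), written 5′ to 3′ along the gene, with CG dinucleotides in capitals.
Maml1 (chr11:50292287-50292586, minus strand): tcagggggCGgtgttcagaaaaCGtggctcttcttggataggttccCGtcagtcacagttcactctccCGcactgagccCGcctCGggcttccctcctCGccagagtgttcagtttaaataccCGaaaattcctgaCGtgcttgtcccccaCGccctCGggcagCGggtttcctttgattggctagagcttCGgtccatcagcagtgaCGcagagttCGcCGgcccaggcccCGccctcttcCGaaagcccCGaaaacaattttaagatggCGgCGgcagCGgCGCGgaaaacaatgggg
Maml2 upstream start (chr9:13297708-13298007, plus strand): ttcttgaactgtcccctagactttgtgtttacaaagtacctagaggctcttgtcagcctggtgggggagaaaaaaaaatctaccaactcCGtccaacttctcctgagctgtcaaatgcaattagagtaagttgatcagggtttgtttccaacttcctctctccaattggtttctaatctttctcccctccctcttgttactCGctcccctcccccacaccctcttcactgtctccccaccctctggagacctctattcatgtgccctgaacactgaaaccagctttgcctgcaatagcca
Maml2 downstream start (chr9:13662210-13662509, plus strand): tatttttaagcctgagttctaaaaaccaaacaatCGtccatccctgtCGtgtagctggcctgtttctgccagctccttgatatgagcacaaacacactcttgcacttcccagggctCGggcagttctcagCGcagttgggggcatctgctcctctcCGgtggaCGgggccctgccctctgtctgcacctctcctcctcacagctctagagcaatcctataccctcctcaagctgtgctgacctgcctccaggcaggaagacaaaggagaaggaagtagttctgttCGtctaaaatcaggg
Maml3 (chr3:52104957-52105256, minus strand): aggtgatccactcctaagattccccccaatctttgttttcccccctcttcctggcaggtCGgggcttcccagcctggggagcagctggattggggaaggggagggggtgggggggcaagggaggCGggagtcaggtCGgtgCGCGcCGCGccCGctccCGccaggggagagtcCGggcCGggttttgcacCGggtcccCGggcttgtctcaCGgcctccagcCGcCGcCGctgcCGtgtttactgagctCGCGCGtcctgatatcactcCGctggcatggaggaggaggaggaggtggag
The upstream Maml2 window held 2 CG dinucleotides and the downstream one, inside the gene, held 7. The Maml1 and Maml3 windows held 24 and 22. Among all 32851 such windows in the mouse table, 23.3% held at most 2 and 23.1% held at least 22, with a median of 7. GC content was 48.0% and 53.7% in the Maml2 windows, 59.3% for Maml1 and 68.3% for Maml3, beside a median of 52.7%. The 2 Maml2 windows were thus nearer to the median than those of either paralog in GC content. Counts per gene symbol do not say which start was used in either tissue.

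The core of the RBPJ motif, TGGGAA on either strand, was searched in the same windows. It occurred once in the downstream Maml2 window, on the minus strand at 145 bases before the start, and not in the upstream one. Maml3 held 1 match, 185 bases before its start, and Maml1 held none. Of all windows, 25.6% held a match. The longer form GTGGGAA, which contains the shorter, was found in no window of the 10 genes and in 6.38% of all windows. Rbpj itself held 2 matches of TGGGAA before its first start, 149 and 65 bases upstream of it.

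The nearest protein-coding genes on each side of Maml2 showed smaller differences. Mtmr2, a phosphoinositide phosphatase gene that begins 39.0 kb beyond the end of Maml2, was at 127 and 78.1 CPM in cortex and at 181, 175 and 172 CPM in dentate gyrus. Its log2 change of 0.78 (SE 0.21) had an adjusted p of 0.0241 by edgeR, which became 0.190 once cortex replicate 2 was dropped and 0.0586 once dentate gyrus replicate 3 was. Ccdc82, which ends 5.4 kb before Maml2, was at 17.4 and 28.0 CPM in cortex and at 36.7, 24.4 and 38.9 CPM in dentate gyrus. It overlapped between the tissues and was not called (adjusted p 0.280 by edgeR). Phxr4, named after its values were seen, is annotated inside Maml2 on the same strand, at 13431361 to 13432751 of chromosome 9, and shares no exon with it. It had 55, 44 and 171 counts in dentate gyrus and 1 and 0 counts in cortex, a ratio of 190 with a 95% exact counting interval of 33.9 to 7549. Dentate gyrus replicate 3 gave most of these counts, and without it the fitted log2 change was 6.41 in place of 7.38. Its adjusted p of 0.00994 by edgeR became 0.0608 by limma voom. The call was also lost without cortex replicate 2 (log2 change 6.67) and with the 2 libraries that stand apart left out. As Phxr4 was picked late and lies inside Maml2, its adjusted p is not independent support. Its reads cannot be told apart from those of unspliced Maml2 RNA. The counting interval for Phxr4, like the others given for ratios of counts, covers counting error only.

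The profiles most like that of Maml2 over the 5 libraries were those of Cdc42ep4, Pcdh20, Il1r1, Sema5a and Zbtb20. Likeness was the Euclidean distance between log2 CPM profiles centred on each gene's mean, over 7507 other genes with a mean of at least 10 CPM, predicted loci and clone names left out. The distances were 0.46, 0.52, 0.52, 0.54 and 0.58. Sema5a, a semaphorin gene, was at 2244, 2245 and 2386 CPM in dentate gyrus and 43.3 and 66.7 CPM in cortex. Cdc42ep4, which encodes an effector of the GTPase Cdc42, was at 27.4, 30.1 and 24.2 CPM in dentate gyrus and at 0.57 and 0.656 CPM in cortex. Zbtb20, a zinc finger transcription factor gene, was at 326, 273 and 304 CPM against 10.7 and 14.4 CPM. With 5 libraries in 2 tissues, these distances mostly reflect the size of the tissue difference.

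Among the 9 genes other than Maml2, the ligand gene Jag1 and the receptor gene Notch2 were called higher in dentate gyrus and none was called higher in cortex. These 2 calls are 22.2% of the 9 genes, close to the 21.3% called among all 14136 genes tested by edgeR in either direction. Jag1, like Dll1, passed the filter on low counts only through dentate gyrus, the tissue where it is high. In dentate gyrus direction alone, 10.5% of tested genes were called. The tissues did not overlap for 8 of the 9, as for 50.1% of all tested genes. For 6 of the 9 every dentate gyrus library lay above every cortex library, where 25.1% of all tested genes did so, and for 2 of the 9 the order was the opposite, where 25.0% did so. The median log2 change of the 9 was 1.07, beside 0.02 over all tested genes. DESeq2 called 4 of the 9, adding Maml1 and Dll1. With the 2 libraries that stand apart left out, edgeR called Jag1 alone.

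The ligand Jag1 was nearly unread in cortex. It was at 5.54, 12.2 and 6.46 CPM in dentate gyrus, from 201, 274 and 165 counts, and at 0.285 and 0.041 CPM in cortex, from 10 counts and 1 count. The lowest dentate gyrus library was 19.5 times the highest cortex library. The ratio of summed counts per depth was 41.0, with a 95% exact counting interval of 22.8 to 82.6. By edgeR the log2 change was 5.52 (SE 1.0, adjusted p 0.00336). Leaving out cortex replicate 1 gave 7.47, leaving out cortex replicate 2 gave 4.77 and leaving out the 2 libraries that stand apart gave 7.05, and it was called each time (adjusted p 0.00640, 0.0182 and 0.0232). Jag1 lies on chromosome 2 from 137081456 to 137116644 on the minus strand.

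Dll1, the Delta-family ligand gene, rested on few reads. Its counts were 110, 16 and 22 in dentate gyrus and 1 and 3 in cortex, where both libraries were at or under the floor. In CPM the dentate gyrus libraries stood at 3.03, 0.71 and 0.861, so replicate 1 was 4.27 times replicate 2. The ratio of summed counts was 26.1 with a 95% exact counting interval of 9.98 to 97.0. By edgeR the log2 change was 4.31 (SE 1.66) with an adjusted p of 0.0915, and without dentate gyrus replicate 1 it was 3.33 with an adjusted p of 0.205. Dropping cortex replicate 1 gave 3.60 and dropping cortex replicate 2 gave 5.53. DESeq2 gave an adjusted p of 0.0259. Of the Dll1 exon bases, 20.5% are shared with the antisense gene A930024N18Rik, and without a known strand setting reads of the pair cannot be told apart.

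Jag2 ran the other way. It was at 0.855 and 2.79 CPM in cortex and at 0.469, 0.266 and 0.509 CPM in dentate gyrus. Cortex replicate 2 held 3.26 times the level of replicate 1, and the fitted log2 change of -2.12 (SE 1.22) had an adjusted p of 0.264 by edgeR. That change was -1.07 when cortex replicate 2 was dropped and -2.73 when cortex replicate 1 was (adjusted p 0.808 and 0.314). Per kb, Jag2 made up 68.8% and 91.7% of the 3 ligands in cortex, and Jag1 made up 54.7%, 91.0% and 80.0% in dentate gyrus. The summed ligand level was 0.178 and 0.436 CPM per kb in cortex and 1.74, 2.29 and 1.39 CPM per kb in dentate gyrus.

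Notch2 made up 85.0%, 88.4% and 86.7% of the 3 receptor genes per kb in dentate gyrus and 30.4% and 69.7% in cortex. It was at 18.5, 28.4 and 19.4 CPM there and at 1.62 and 6.35 CPM in cortex, so that the cortex libraries differed 3.91-fold from each other. The lowest dentate gyrus library was still 2.91 times the highest cortex library. The log2 change was 2.48 (SE 0.59, adjusted p 0.0145 by edgeR). It was 1.80 without cortex replicate 1 (adjusted p 0.0481) and 3.73 without cortex replicate 2 (adjusted p 0.00360). With the 2 libraries that stand apart left out it was 1.58, with an adjusted p of 0.124, which ended the call. Notch2 lies on chromosome 3 from 98013527 to 98150361 on the plus strand.

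Notch1 and Notch3 were low in all libraries. Notch1, the receptor gene best known from neural progenitors, was at 3.89, 2.49 and 2.47 CPM in dentate gyrus and at 1.05 and 0.697 CPM in cortex. The tissues did not overlap, and the log2 change of 1.74 (SE 0.95) had an adjusted p of 0.237 by edgeR. Notch3, the receptor gene of vascular mural cells, was at 2.19 and 1.68 CPM in cortex and at 0.248, 1.38 and 0.822 CPM in dentate gyrus. Its log2 change was -1.25 (SE 1.14, adjusted p 0.506 by edgeR), and dentate gyrus replicate 2 held 5.54 times the level of replicate 1. Dropping dentate gyrus replicate 2 gave -1.87. Antisense or other overlapping genes share 9.76% of the Notch1 and 6.03% of the Notch3 exon bases.

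Vessel and progenitor genes were read beside these receptors and ligands, since those cells are known to use them. The summed level of 8 endothelial markers was 8.23 and 8.49 CPM in cortex and 10.1, 31.8 and 19.0 CPM in dentate gyrus. Replicate 2 was highest in this sum and in Jag1 and Notch2, but the single markers differed. Cdh5 was at 9.9 CPM in it against 0.221 and 0.157 CPM in replicates 1 and 3, and Flt1, Tek, Kdr, Cldn5 and Ly6c1 were also highest there. Pecam1 was lowest there, at 0.399 CPM against 1.3 and 1.76 CPM, and Esam was highest in replicate 3, at 7.12 CPM against 2.17 CPM in replicate 2. None of the 7 tested genes of this list was called by edgeR, and their median log2 change was 2.02. For 4 of the 7 (Pecam1, Tek, Kdr and Esam) every dentate gyrus library lay above every cortex library, beside 25.1% of all tested genes. For none was the order the reverse, beside 25.0% of all tested genes. The 4 named genes passed the filter on low counts only through dentate gyrus, where they are higher. Their order and the median of the list are therefore not independent of the filter. Cldn5, a defining endothelial gene that was not tested, had no count in both cortex libraries and in dentate gyrus replicate 1 and at most 0.0444 CPM in the others. Without dentate gyrus replicate 2, the log2 change was 5.09 for Jag1 (adjusted p 0.0137) and 2.25 for Notch2 (adjusted p 0.0348) by edgeR. Mural markers summed to 17.5 and 22.7 CPM in cortex and to 8.52, 24.4 and 18.9 CPM in dentate gyrus, with none of 6 tested genes called. Kcnj8, which was not tested, was at 0 in both cortex libraries and had only 2, 7 and 5 counts in dentate gyrus. Neural progenitor markers summed to 51.8 and 28.5 CPM in cortex and to 23.2, 25.6 and 30.2 CPM in dentate gyrus, with none of 7 tested genes called and a median of -0.54. The tissues did not overlap for 4 of these 7 (beside 50.1% of all tested genes), with 2 higher in each tissue. Among them, Nes and Mki67 passed the filter on low counts only through dentate gyrus and Fabp7 only through cortex. In cortex Mki67 was at 0.228 and 2.17 CPM against 8.02, 2.57 and 13.3 CPM in dentate gyrus, Fabp7 was at 8.78 and 1.68 CPM against 0, 0.266 and 0.587 CPM, and Eomes was at 0 in every library. The part of such cells in the receptor and ligand values was not tested.

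Rbpj, which carries the signal to DNA, was the only one of the 10 genes whose tissues overlapped. It was at 14.9 and 12.1 CPM in cortex and at 14.5, 8.3 and 9.2 CPM in dentate gyrus. The log2 change was -0.34 (SE 0.42, adjusted p 0.636 by edgeR), and its 14 alternatives ran from -0.65 to -0.02. This does not show that the levels were equal.

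**Figure D3:**
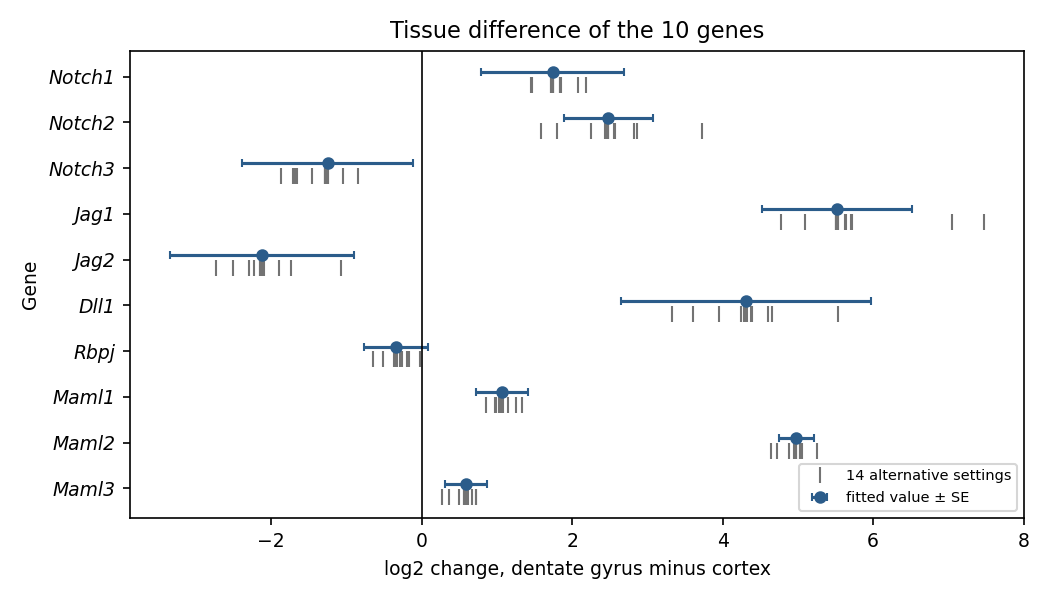
Log2 change between dentate gyrus and cortex for each gene; points are fitted values with bars of 1 SE, and grey ticks are the 14 alternative settings. Maml2 at 4.98 has a short bar (0.23), Jag1 at 5.52 and Dll1 at 4.31 have long ones (1.0 and 1.66), and no gene changes sign under any of these settings.

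Per kb of exon, cortex held the order Maml3, Maml1, Maml2, Rbpj, Notch2, Jag2, Notch3, Notch1, Jag1 and Dll1, from 2.91 to 0.018 CPM per kb. There Notch2 and Jag2, Jag2 and Notch3, and Jag1 and Dll1 overlapped between libraries as neighbours in the order, while the other neighbours did not. In dentate gyrus the order was Maml2, Maml1, Maml3, Notch2, Jag1, Rbpj, Dll1, Notch1, Notch3 and Jag2, from 51.4 to 0.0595 CPM per kb. Only Maml2 and Maml1, Maml3 and Notch2, and Notch1 and Notch3 were separated there from their neighbour in every library. The Mastermind genes thus led both orders, with Rbpj at 1.06 ± 0.157 CPM per kb in cortex (SD, n = 2) and 0.837 ± 0.263 in dentate gyrus (SD, n = 3).

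Beyond the 10 genes, 92 others of the pathway were listed by step, and 82 of them were tested. Of these, 13 were called with the higher level in dentate gyrus (15.9%, beside 10.5% of all tested genes) and 9 with the higher level in cortex (11%, beside 10.8%). Their median log2 change was 0.22. Without cortex replicate 2 the calls were 7 and 5, and with the 2 libraries that stand apart left out they were 8 and 8.

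**Figure D4:**
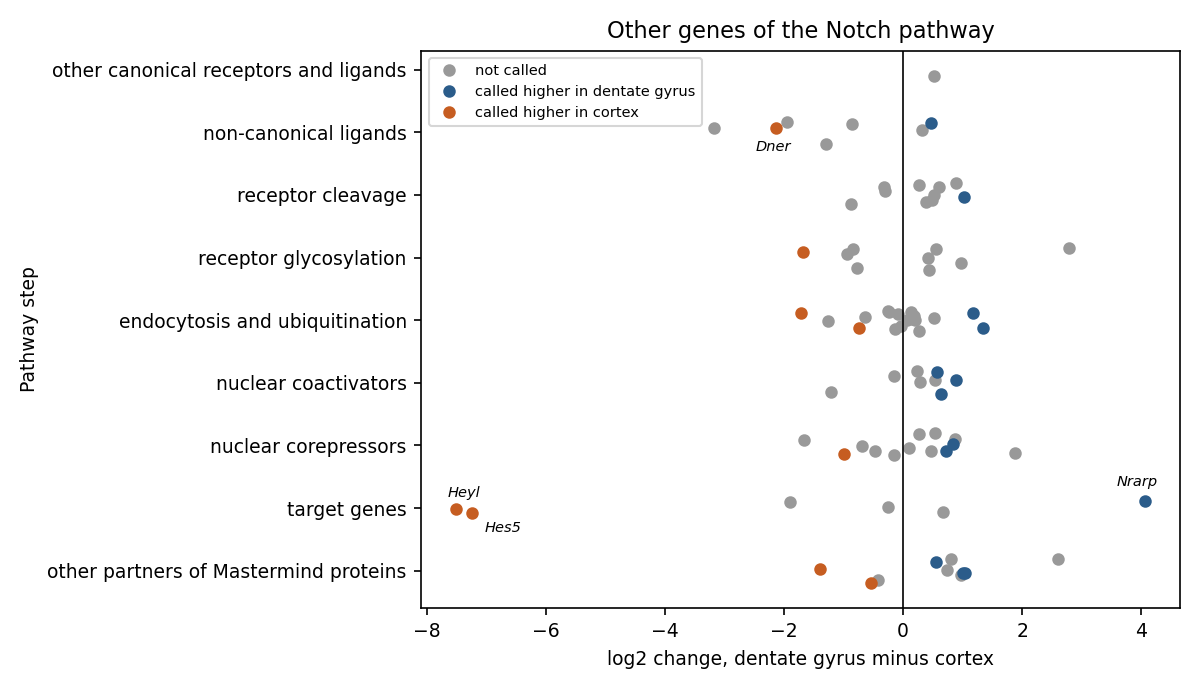
Log2 change between dentate gyrus and cortex for 82 other pathway genes, 1 point per gene, grouped by step; points are jittered vertically. Nrarp at 4.07 and Hes5 and Heyl at -7.24 and -7.52 lie farthest out, all among the target genes, and called genes of the other steps lie between -2.13 and 1.35.

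Target genes did not move together. Of 7 listed, 6 were tested, with a median log2 change of -1.07. Toward dentate gyrus 1 was called (16.7%, beside 10.5% of all tested genes) and toward cortex 2 were (33.3%, beside 10.8%). Each of these called genes passed the filter on low counts only through the tissue where it is higher. Nrarp, whose product feeds back on the Notch intracellular domain, was at 8.14, 7.24 and 16.0 CPM in dentate gyrus and at 0.855 and 0.369 CPM in cortex. Its log2 change was 4.07 (SE 0.74, adjusted p 0.00357 by edgeR), and 4.81 without cortex replicate 1 (adjusted p 0.0119). With the 2 libraries that stand apart left out it was 5.02 (adjusted p 0.0168). The repressor gene Hes5 was at 3.02 and 5.29 CPM in cortex, with 2 counts over the 3 dentate gyrus libraries. The cortex to dentate gyrus ratio of its counts was 167, with a 95% exact counting interval of 45.6 to 1384. By edgeR its adjusted p was 0.00359, and it was 0.0531 without cortex replicate 2. Heyl, a Hey-family repressor gene, was at 1.65 and 9.22 CPM in cortex, also with 2 counts over dentate gyrus, and a ratio of 201 (counting interval 55.0 to 1665). Its adjusted p of 0.00419 became 0.163 without cortex replicate 2, where the log2 change was -5.80 in place of -7.52. It was -8.26 when cortex replicate 1 was dropped and -6.89 when dentate gyrus replicate 1 was. These fitted values rest on 2 counts in dentate gyrus and set no bound.

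The other target genes were not called. Hes1 was at 9.26 and 4.92 CPM in cortex and 1.10, 1.46 and 3.13 CPM in dentate gyrus (adjusted p 0.0971 by edgeR). Hey1 was at 136 and 155 CPM in cortex and 110, 130 and 127 CPM in dentate gyrus (adjusted p 0.321 by edgeR). Hey2 stood at 1.42 and 1.31 CPM against 1.35, 1.91 and 3.29 CPM, overlapping between tissues. Hes7 reached 0.171 CPM at most and was not tested. Beside the targets higher in cortex, 3 of 8 astrocyte markers (37.5%, beside 10.8% of all tested genes) were also called higher there. They were Aldh1l1, S100b and Sox9. Aldh1l1, with 3, 0 and 2 counts in dentate gyrus, passed the filter on low counts only through cortex. The astrocyte list summed to 103 and 135 CPM in cortex and to 37.5, 44.5 and 74.3 CPM in dentate gyrus. Without S100b, which gave most of the cortex sum, it was 41.5 and 55.8 CPM against 34.3, 41.7 and 71.3 CPM. The median log2 change of its 8 genes was 0.48, with the opposite sign to the full sums, and the 5 that were not called, Gfap and Aqp4 among them, overlapped between the tissues. The part of astrocytes in the Hes5 and Heyl values was not tested.

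In the nucleus, 3 of 8 coactivator genes were called higher in dentate gyrus (37.5%, beside 10.5% of all tested genes) and none higher in cortex (beside 10.8%), with a median of 0.42. Mamld1, which encodes a Mastermind-like domain protein, was at 375, 373 and 339 CPM in dentate gyrus and at 200 and 194 CPM in cortex (log2 0.88, SE 0.12, adjusted p 8.66e-04 by edgeR). The acetyltransferase genes Crebbp and Ep300, whose products are recruited by Mastermind, rose by log2 0.63 (SE 0.13) and 0.57 (SE 0.12). Their adjusted p of 0.00724 and 0.00834 became 0.0601 and 0.0855 without cortex replicate 2, and that of Ep300 was 0.0801 with the 2 libraries that stand apart left out. Of 13 tested corepressor genes, 2 were called higher in dentate gyrus (15.4%, beside 10.5%) and 1 in cortex (7.69%, beside 10.8%), with a median of 0.27. Ncor1, a scaffold of repressor complexes, was at 1140, 1036 and 965 CPM in dentate gyrus and at 581 and 596 CPM in cortex (adjusted p 5.41e-04 by edgeR). Hdac2, a histone deacetylase gene, had a log2 change of 0.72 (adjusted p 0.0293), with adjusted p of 0.175, 0.0565, 0.0631 and 0.0940 without cortex replicates 1 and 2 and dentate gyrus replicates 2 and 3. It was 0.276 with the 2 libraries that stand apart left out. Bend6, whose product opposes Notch in neural cells, was higher in cortex at 253 and 238 CPM against 114, 154 and 102 CPM (adjusted p 0.00390 by edgeR).

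At the membrane, 2 of 18 genes of endocytosis and ubiquitination were called in each direction, with a median of 0.01. That is 11.1% each way, beside 10.5% of all tested genes toward dentate gyrus and 10.8% toward cortex. Numb, an inhibitor of Notch receptors, was at 48.4 and 51.4 CPM in cortex and at 15.5, 18.6 and 11.7 CPM in dentate gyrus (log2 -1.71, SE 0.28, adjusted p 0.00211 by edgeR). Its paralog Numbl overlapped between the tissues. Fbxw7, the ubiquitin ligase receptor gene that marks the intracellular domain for destruction, was also lower in dentate gyrus, at 260, 269 and 263 CPM against 416 and 474 CPM (adjusted p 0.00150 by edgeR). The ubiquitin ligase gene Nedd4l was higher in dentate gyrus at 2138, 1761 and 1900 CPM against 881 and 827 CPM. Epn2, an epsin gene of clathrin-mediated uptake, was higher there too, at 232, 198 and 292 CPM against 86.6 and 102 CPM. Their adjusted p were 5.88e-05 and 8.40e-04 by edgeR.

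The protease gene Adam10, which makes the first cut in the receptor, was at 34.2 and 32.2 CPM in cortex and at 31.0, 64.0 and 56.5 CPM in dentate gyrus and was not called (chosen after its values were seen). Xxylt1, a xylosyltransferase gene, was the single call among 9 tested glycosylation genes (11.1%, beside 10.8% of all tested genes called toward cortex). The gene was at 14.4 and 13.2 CPM in cortex and 3.78, 4.75 and 4.27 CPM in dentate gyrus. Its adjusted p of 0.0236 became 0.132, 0.0943, 0.0503 and 0.0531 without cortex replicates 1 and 2 and dentate gyrus replicates 1 and 3, and 0.171 with both libraries that stand apart left out.

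Among 7 tested genes of non-canonical ligands, 1 was called in each direction, with a median of -1.29. That is 14.3% each way, beside 10.5% of all tested genes toward dentate gyrus and 10.8% toward cortex. Dner, a membrane protein gene with EGF repeats, was at 126 and 55.4 CPM in cortex and at 5.71, 36.4 and 20.4 CPM in dentate gyrus (adjusted p 0.0316 by edgeR). Its adjusted p was 0.243 without cortex replicate 1, where the log2 change was -1.41 in place of -2.13, 0.0713 after dropping dentate gyrus replicate 3, and 0.0974 when dispersion was estimated robustly. It was 0.0836 by DESeq2 and 0.0840 with both libraries that stand apart left out. The gene was called without cortex replicate 2 and, at a log2 change of -2.82, without dentate gyrus replicate 2. Cntn1, an adhesion molecule gene, was at 548, 538 and 567 CPM in dentate gyrus and at 390 and 404 CPM in cortex. Its adjusted p of 0.0118 became 0.0712, 0.0690 and 0.0504 without cortex replicates 1 and 2 and dentate gyrus replicate 3, and 0.117 with both libraries that stand apart left out. Of the canonical genes outside the 10, Notch4 was tested and not called, and Dll3 and Dll4 were too low to test.

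Mastermind proteins also act with factors outside the Notch pathway, and 10 of 12 such partner genes were tested. Of these, 3 were called toward dentate gyrus (30%, beside 10.5% of all tested genes) and 2 toward cortex (20%, beside 10.8%). Their median was 0.77. Mef2a, a myocyte enhancer factor gene, was at 539, 489 and 506 CPM in dentate gyrus and at 280 and 219 CPM in cortex (adjusted p 6.13e-04 by edgeR). Its relative Mef2c ran the other way, at 1587 and 1644 CPM in cortex against 642, 612 and 599 CPM (adjusted p 9.99e-06 by edgeR). Crtc1, a CREB coactivator gene whose human counterpart is fused to MAML2 in some salivary gland tumours, was at 306, 207 and 290 CPM in dentate gyrus and at 136 and 130 CPM in cortex (adjusted p 0.00354 by edgeR). Mef2d had an adjusted p of 0.0495, which became 0.0555 with another scaling and 0.180, 0.196, 0.119 and 0.0571 without cortex replicates 1 and 2 and dentate gyrus replicates 1 and 3. It was 0.136 with both libraries that stand apart left out. The β-catenin gene Ctnnb1 was higher in cortex, at 245 and 256 CPM against 166, 179 and 172 CPM. Its adjusted p of 0.0152 became 0.0618 and 0.0766 without cortex replicates 1 and 2, and 0.0955 with both libraries that stand apart left out.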

How the data were processed

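Polysomal RNA pulled down with an antibody against EGFP was sequenced from 2 cerebral cortex and 3 dentate gyrus samples. Each deposited table holds whole-number read counts by gene symbol for 1 library, made with STAR 2.0.0e and HTSeq on mm10, per the submitters' processing notes. The sources used here do not give the annotation, the strand setting or how overlapping genes were counted. Library sizes leave out the rows that name no gene. Reads that matched no feature made up 10.59% to 14.83% of each library and reads that were not unique 25.03% to 31.76%.

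Library sizes were scaled with edgeR's TMM method, and genes were filtered with filterByExpr (14136 genes tested) and compared with edgeR 4.0.16 in R 4.3.3 by a quasi-likelihood F test on tissue, dentate gyrus minus cortex. P-values were adjusted by the Benjamini-Hochberg method over all tested genes and called under 0.05. Every adjusted p for a gene comes from this fit unless another tool, setting or set of libraries is named. Those are separate fits, each adjusted over its own tested genes. Standard errors are the coefficient divided by the root of the F statistic. CPM uses the scaled library sizes. Exon length is the union of exons in GENCODE M21 (GRCm38, the assembly also called mm10). Log2 CPM for profiles had a prior count of 2. In a simulation 200 of 14136 genes were changed, far fewer than the 3009 called in the data, so its rates need not carry over. On these simulated counts the procedure recovered 19% of 2-fold and 56.7% of 4-fold changes. Of its 83 calls 9 were false, a larger share than the threshold of 0.05 aims at. A gene that was not called can therefore still differ by such amounts. Alternatives were 2 other scalings, 2 other filters, a replicate block, robust dispersion, DESeq2 1.42.0, limma 3.58.1 voom, and leaving out each library or 2 together. The 10 genes, the pathway and marker lists and the alternatives were chosen with earlier results of these data known. Named genes were the 10 genes, up to 3 called genes per list and direction by smallest p, all targets, the 5 profiles nearest to Maml2, and its protein-coding neighbours. The neighbour Gm17571 was not analysed here, and 1 gene that the rule names is not reported here. Figures used matplotlib 3.10.9.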

Additional observations from a re-analysis of the deposited data

How the results depend on the processing

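All 10 genes kept their direction under the 14 alternatives. The number of genes called, 3009, became 1578 with cortex replicate 1 left out along with the second dentate gyrus library, and 1886 to 2775 when 1 library was left out. It was 2237 with a replicate block. Of the 9 genes other than Maml2, 2 were called; this count was 4 by DESeq2, 1 without both libraries, 2 to 3 without 1 library and 2 with a replicate block. Of the other pathway genes, 22 were called, 12 to 24 without 1 library and 16 with a replicate block. The cause of these moves was not tested. For replicate numbers shared between tissues, the correlation of deviations from the tissue means was -0.004 for number 1 and -0.0163 for number 2. With 2 cortex libraries the cortex deviations mirror each other, so these values cannot decide whether the numbers mark pairs. The block ended the calls of Cntn1, Dner, Xxylt1, Hdac2 and Ctnnb1, with adjusted p of 0.0588 to 0.0907. Leaving out a cortex library leaves 1 sample, which is then assumed to vary like the dentate gyrus libraries. Depth limits Dll1, Jag1, Hes5 and Heyl, which had at most 11 counts summed over the lower tissue. They passed the filter on low counts only through the tissue where they are higher. So did Nrarp, Phxr4 and the marker genes named above with this limit.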
